A study of Mus musculus with 24 samples.

Results

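The nidogen gene Nid2, the CD200 receptor gene Cd200r1 and the small GTPase gene Arl5a were followed across 3 subsets of regulatory T (Treg) cells sorted from mouse spleen. These are 3 of the 17464 genes listed in the deposited table, and all 3 passed the filter that left 16630 genes for testing (a normalized value of 10 or more in 4 or more libraries). They were chosen because each was higher in kTreg than in aTreg cells in all 8 mice. Resting Treg (rTreg) cells had been sorted as CD62L+ CD44-, activated Treg (aTreg) cells as CD62L- CD44+, and kTreg cells by KLRG1, an inhibitory receptor of late-stage lymphocytes. The mice were wild type C57BL/6JRccHsd, 4 young (2 months old) and 4 old (26 months old), with no treatment named in the labels. Each mouse gave 1 library per subset, so there were 24 libraries in 6 groups of 4, and the spread given throughout is that between mice. The normalized value used below is the number of reads on a gene divided by the size factor of its library, and 1 read was worth between 0.694 and 1.32 of these units.

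The chosen genes act in unrelated places. Cd200r1 encodes an inhibitory receptor of the immunoglobulin superfamily on myeloid cells and some T cells, which binds the membrane protein CD200 on neighbouring cells and signals through the adaptors DOK1 and DOK2 to the Ras GTPase-activating protein RASA1. Arl5a encodes a GTPase of the ARF-like family at the trans-Golgi network, where ARL5 proteins recruit the GARP tethering complex for vesicles that return from endosomes. Nid2 encodes nidogen-2, a secreted glycoprotein that links laminin to type IV collagen in basement membranes, and is better known from endothelium and connective tissue than from lymphocytes. Bulk libraries do not separate fewer expressing cells from less RNA per cell, and this holds for every level and difference given here.

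Cd200r1 (ENSMUSG00000022667) lies on the plus strand of chromosome 16 at 44586096 to 44615343 (GRCm39), Arl5a (ENSMUSG00000036093) on the minus strand of chromosome 2 at 52287960 to 52314921, and Nid2 (ENSMUSG00000021806) on the plus strand of chromosome 14 at 19801298 to 19861855. Of these genes, Arl5a has a promoter in the RefSeq table used here (GRCm38.p6). It is shown because it is the sequence next to the start of a gene that differed by subset. The 220 bases from 250 to 31 bases before its start, chr2:52424905-52425124 on the minus strand, read as follows, with matches to the GC box GGGCGG, on either strand, in capitals.
Arl5a promoter: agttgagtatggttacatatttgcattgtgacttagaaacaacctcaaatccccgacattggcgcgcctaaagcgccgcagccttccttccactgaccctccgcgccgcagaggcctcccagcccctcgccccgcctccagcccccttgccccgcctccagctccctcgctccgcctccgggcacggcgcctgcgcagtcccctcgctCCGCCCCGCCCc
The window was 67.3% G and C, against a median of 51.8% over the same windows of 32851 promoters. It held 2 GC boxes, which begin 42 and 37 bases before the start and share 1 base, and 28.5% of all promoters held at least 1. No match was found on either strand to the Gata motif AGATAA (in 9.04% of promoters), the Ets motif CCGGAA (9.47%), the Runx motif TGTGGT (12.7%), the Nfat motif GGAAAA (18.4%), the AP-1 motif TGANTCA (6.12%), the Creb motif TGACGT (5.14%), the Fox motif TGTTTAC (2.81%) or the TATA box TATAAA (9.95%). A match is a run of letters and not a shown binding site.

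Depth was between 15045747 and 29521942 reads on listed genes per library. Foxp3, the defining Treg transcription factor, stood between 13151 and 37793 in all libraries except old aTreg replicate 2, at 5079.5, and Klrg1 between 16559 and 41561 in kTreg libraries against at most 357 in the others. The young kTreg library of replicate 4 listed 4913 genes at 0, the most of all libraries (median 734). In old rTreg replicates 1 to 4 this count was 1855, 1215, 2642 and 2756, against 554 to 1146 in young rTreg libraries. The part of this in the age differences of rTreg cells was not tested. The 3 libraries of young mouse 2 had the highest summed level of 7 B cell markers of their groups.

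The difference between kTreg and aTreg cells chose these genes, so it is described here and not tested. For Cd200r1 the kTreg value was between 2.42 and 5.43 times the aTreg value of the same mouse, with a mean log2 difference of 1.80 (standard error 0.10). For Arl5a the ratio ran from 1.988 to 5.81 and the mean log2 difference was 1.93 (standard error 0.15). For Nid2 it ran from 3.46 to 50.7, and the mean log2 difference was 3.66 (standard error 0.29). Standard errors here and below are those of the limma model of 6 groups, which does not pair the subsets of a mouse. The SD of the log2 difference over the 8 mice was 0.39 for Cd200r1, 0.60 for Arl5a and 1.05 for Nid2. The ratio thus varied least between mice for Cd200r1 and most for Nid2, whose aTreg values are low. The mouse nearest to the limit of the choice was young mouse 4 for Arl5a, at a log2 difference of 0.99. Over all genes tested, 928 (5.58%) were higher in kTreg cells in all 8 mice, and 4.13% were called higher in kTreg than in aTreg cells and 3.26% lower, where called means an adjusted p below 0.05 in limma and a fold above 1.5. Among the called genes that were higher in all 8 mice, ordered by p, Il1rl1, which encodes the IL-33 receptor ST2, came before the 3 genes with a log2 difference of 4.57 (standard error 0.16), and Gata3, a transcription factor of type 2 lymphocytes, came after them with 1.16 (standard error 0.10).

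**Figure D1:**
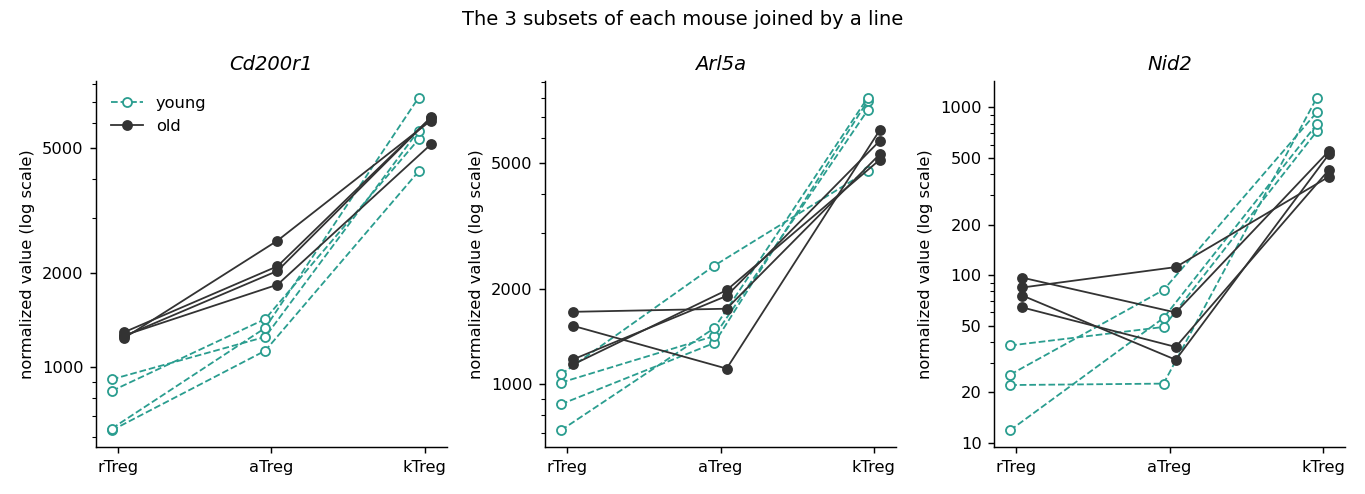
Normalized value (log scale) of Cd200r1, Arl5a and Nid2 in the rTreg, aTreg and kTreg library of each mouse, with a line for each of the 4 young (dashed, open) and 4 old (solid, filled) mice. Every line goes up from aTreg to kTreg cells, which is how the genes were chosen, while the aTreg value was above the rTreg value in 8 of 8 mice for Cd200r1, in 7 for Arl5a and in 5 for Nid2.

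Cd200r1 had its highest levels in kTreg cells and its lowest in rTreg cells of young mice. In replicates 1 to 4 it stood at 840.4, 629, 915 and 637 in young rTreg cells and at 1264, 1257, 1239 and 1293 in old rTreg cells. In aTreg cells it stood at 1425, 1129, 1249.9 and 1335 in young and at 1834, 2029.9, 2536 and 2100.4 in old mice. In kTreg cells it stood at 5336.5, 4215, 5692 and 7248 in young and at 5139.7, 6255, 6125 and 6266 in old mice. No rTreg or aTreg library of either age reached a kTreg library. The order of the group means was old kTreg (5946.5 ± 542, SD, n = 4), young kTreg (5623 ± 1253), old aTreg (2125 ± 296), young aTreg (1285 ± 126), old rTreg (1263 ± 22.6) and young rTreg (755 ± 144). The libraries of old and young kTreg cells overlapped, as did those of young aTreg and old rTreg cells, and the other neighbours in this order did not.

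Arl5a separated kTreg cells from the rest as completely. In replicates 1 to 4 it stood at 865, 1012.5, 716 and 1075 in young rTreg cells and at 1693, 1529, 1199 and 1155 in old rTreg cells. In aTreg cells the values were 1350.2, 1420.3, 1505 and 2369 in young and 1732, 1121, 1900.5 and 1982 in old mice. In kTreg cells they were 7848.5, 7335, 8029 and 4709.5 in young and 5330.4, 6358, 5878 and 5119.8 in old mice. The lowest kTreg library, young replicate 4, was still above the highest aTreg library, which came from the same mouse. The means were 6980.5 ± 1542 in young kTreg, 5671.5 ± 558 in old kTreg, 1684 ± 389 in old aTreg, 1661 ± 476 in young aTreg, 1394 ± 259.9 in old rTreg and 917 ± 160.5 in young rTreg cells (SD, n = 4). Of the neighbours in this order, the kTreg groups overlapped, the aTreg groups overlapped, young aTreg and old rTreg cells overlapped, and old and young rTreg cells did not.

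Nid2 was low outside kTreg cells. In replicates 1 to 4 it stood at 38.0, 25.5, 11.9 and 22.1 in young rTreg cells, from 9 to 37 reads per library, and at 64.1, 84.3, 96.4 and 75.5 in old rTreg cells. In aTreg cells it stood at 49.0, 81.5, 55.5 and 22.5 in young and at 37.3, 112, 59.8 and 31.2 in old mice. In kTreg cells it stood at 720.5, 935, 794 and 1143 in young and at 425, 387, 551 and 528 in old mice. Every young kTreg library was above every old one, the reverse of the order for rTreg cells, where every old library was above every young one. The means were 898 ± 186 in young kTreg, 473 ± 79.3 in old kTreg, 80.1 ± 13.7 in old rTreg, 60.0 ± 36.5 in old aTreg, 52.1 ± 24.2 in young aTreg and 24.4 ± 10.8 in young rTreg cells (SD, n = 4). The 2 kTreg groups did not overlap with each other or with old rTreg cells, and the other neighbours in this order overlapped.

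Per kilobase of exon, Cd200r1 was the most abundant of the 3 genes in every group and Nid2 the least. In young kTreg cells the values per kilobase were 1677 ± 374 for Cd200r1, 1259 ± 278 for Arl5a and 138 ± 28.6 for Nid2. Among 16540 genes with a length, these levels were above 97.0%, 95.9% and 66.1% of genes, respectively. In young rTreg cells Cd200r1 was above 76.4%, Arl5a above 70.6% and Nid2 above 14.3% of genes. The young kTreg library of replicate 4 held the highest Cd200r1 and Nid2 values of all libraries and the lowest Arl5a value of the kTreg libraries.

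**Figure D2:**
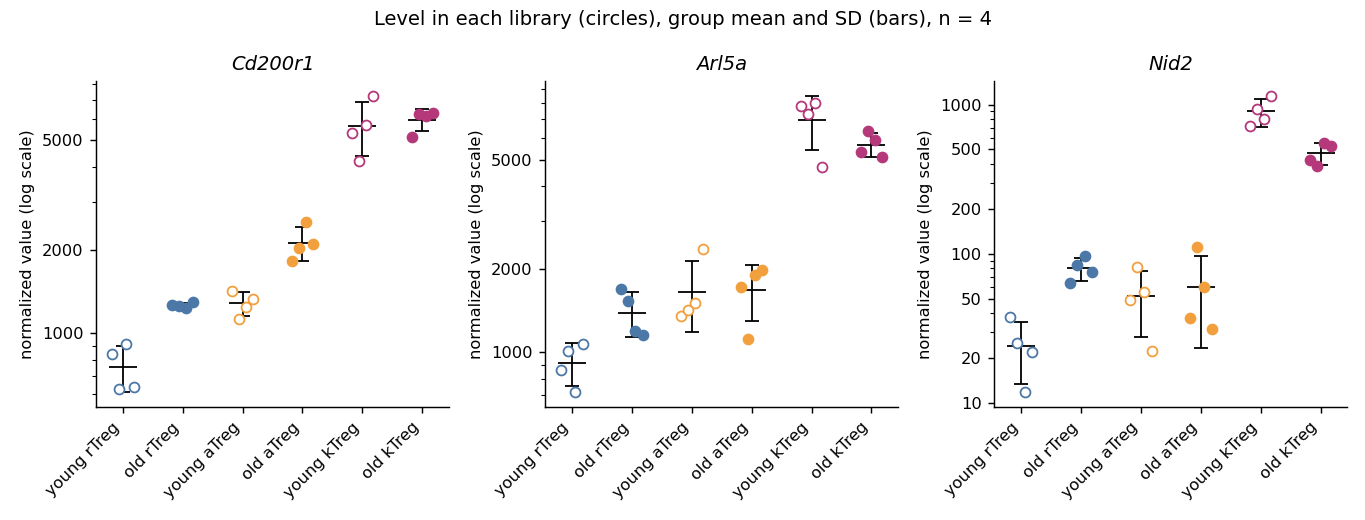
Normalized value (log scale) of each gene in each of the 24 libraries (circles, open for young and filled for old mice), with the mean and SD of each group of 4. The kTreg libraries lie above all rTreg and aTreg libraries for each gene, from 4215 to 7248 for Cd200r1, from 4709.5 to 8029 for Arl5a and from 387 to 1143 for Nid2.

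Both antigen-experienced subsets, averaged with equal weight, were then set beside rTreg cells. The kTreg and aTreg libraries that chose the genes enter this difference, so it is given as a value with no test. The mean log2 difference from rTreg cells was 1.66 (standard error 0.09) for Cd200r1, 1.51 (standard error 0.13) for Arl5a and 2.06 (standard error 0.25) for Nid2. All log2 differences are of log2(value + 1). From rTreg to aTreg cells the mean log2 difference was 0.76 (standard error 0.10) for Cd200r1, 0.55 (standard error 0.15) for Arl5a and 0.23 (standard error 0.29) for Nid2. Cd200r1 was higher in aTreg than in rTreg cells in 8 of 8 mice, by 1.37 to 2.09 times. For Nid2 the aTreg value was above the rTreg value in 4 of 4 young mice, by as little as 22.5 against 22.1 in young mouse 4, and in 1 of 4 old mice, and a difference between the ages was not tested.

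Old and young mice were compared within each subset. The rTreg difference uses none of the libraries that chose the genes. Its standard error and p do use them, since the 6 groups share 1 estimate of the spread, so these are not free of the choice. Cd200r1 was higher in old than in young rTreg cells by 0.76 on the log2 scale (standard error 0.15, adjusted p = 0.0025, limma) and Nid2 by 1.77 (standard error 0.41, adjusted p = 0.0097), and both were called, beside 5.83% of all genes. Arl5a differed by 0.60 (standard error 0.21, 95% confidence interval 0.17 to 1.04), with an adjusted p of 0.084, and was not called, although the 4 old libraries lay above the 4 young ones. The Arl5a difference was called without young kTreg replicate 4 (0.60, adjusted p = 0.036) and without the 3 libraries of young mouse 4 (0.68, adjusted p = 0.018). The Nid2 difference was no longer called without young rTreg replicate 3 (1.48, adjusted p = 0.054), the library with the fewest Nid2 reads, nor without all libraries of that mouse (1.48, adjusted p = 0.084). For Cd200r1 no left-out library changed the call. With only the rTreg libraries in the model, Cd200r1 was still called, and Arl5a and Nid2 were not.

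Markers of other cell types moved with age in rTreg cells. The summed level of 8 basophil and mast cell markers, cells that carry CD200 receptors, was 4918, 9569.6, 13116 and 7756 in old rTreg replicates 1 to 4, against 203 to 353 in young rTreg cells. All 8 markers were in the table and 7 were called higher in old rTreg cells. For 9 macrophage, monocyte and dendritic cell markers the sum was between 11040 and 28617 in old rTreg libraries and between 640.04 and 8940 in young ones, and none of them was called. Within old rTreg cells the order of the libraries by Nid2 was their order by the basophil and mast cell sum. Cd200r1 stayed between 1239 and 1293 in the same libraries, and its lowest value was in the library with the highest sum. The part of these cells in the age differences of rTreg cells was not tested. In kTreg libraries the basophil and mast cell sum was between 9.16 and 255 in young and between 150 and 865 in old mice. Of the 8 markers 5 were called higher in old than in young kTreg cells, beside 1.26% of all genes called in either direction. The median log2 difference of the 8 was 3.405, against 0.12 over all genes. The part of these cells in the age differences of kTreg cells was not tested.

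The macrophage, monocyte and dendritic cell sum also moved with the subset. In replicates 1 to 4 it was 1015, 21787, 743 and 0 in young kTreg cells, against 89.2 to 3195 in young aTreg cells. It was between 2081 and 3106 in old kTreg and between 245 and 406 in old aTreg libraries. Of the 9 markers 1 was called higher in kTreg than in aTreg cells, beside 4.13% of all genes. This was Itgam, an integrin chain of myeloid cells, with a log2 difference of 3.20 (adjusted p = 0.026, limma). The 9 log2 differences ran from 0.36 (Cd68) to 3.66 (Csf1r, adjusted p = 0.074, limma). Their median was 1.72, against −0.08 over all genes. The young kTreg library with the sum of 21787 had the lowest Cd200r1 value of the kTreg libraries, and the library with a sum of 0, which also listed 4913 genes at 0, had the highest Cd200r1 and Nid2 values. Without young kTreg replicate 2 the log2 difference of kTreg from aTreg cells was 1.86 for Cd200r1, 1.91 for Arl5a and 3.64 for Nid2, and without young kTreg replicate 4 it was 1.73, 2.02 and 3.595. These values rest on single libraries, and the part of myeloid cells in the kTreg levels was not tested.

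**Figure D3:**
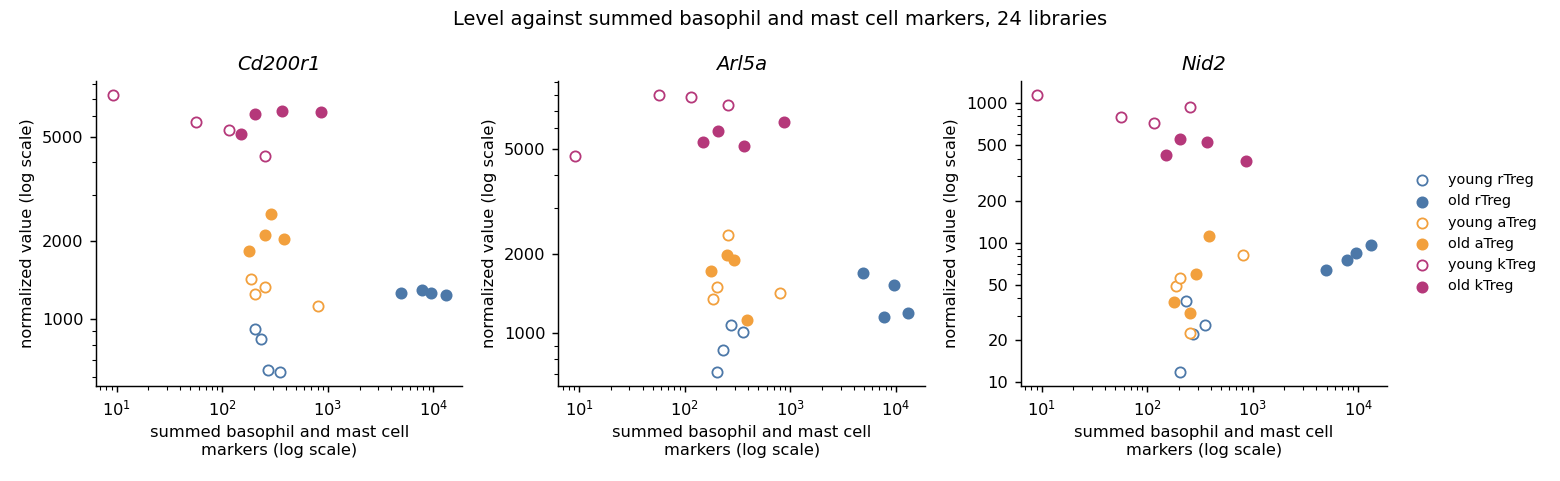
Normalized value of each gene (log scale) against the summed level of 8 basophil and mast cell markers (log scale) in 24 libraries, open for young and filled for old mice. The 4 old rTreg libraries stand apart at sums of 4918 to 13116, while the kTreg libraries, with the highest level of each gene, lie at 9.16 to 865.

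The aTreg and kTreg libraries chose the genes, so the age tests in these subsets are not free of the choice, although it used both ages alike. In aTreg cells Cd200r1 was higher in old mice by 0.72 (standard error 0.15, adjusted p = 0.0067, limma) and was called, beside 2.71% of all genes. The old and young aTreg libraries of Cd200r1 did not overlap, and the basophil and mast cell sum was between 178 and 386 in old and between 186 and 803 in young aTreg libraries. The macrophage, monocyte and dendritic cell sum was between 245 and 406 in old and between 89.2 and 3195 in young aTreg libraries. Arl5a differed by 0.02 (95% confidence interval −0.41 to 0.46) and Nid2 by 0.16 (−0.69 to 1.00), and neither was called. In kTreg cells none of the 3 genes was called, beside 1.26% of all genes. Basophil and mast cell markers also differed with age in kTreg cells, as given above. The difference of old from young kTreg cells was 0.10 for Cd200r1 (95% confidence interval −0.20 to 0.41, adjusted p = 0.74), −0.27 for Arl5a (−0.71 to 0.16, adjusted p = 0.51) and −0.92 for Nid2 (−1.76 to −0.07, adjusted p = 0.29). The Nid2 interval is below 0 before, but not after, correction over all genes. The median over all genes was 0.12 in kTreg cells, 0.01 in aTreg cells and −0.08 in rTreg cells.

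The age difference in kTreg cells was also set against that in aTreg cells in an interaction term. It was −0.62 for Cd200r1 (standard error 0.21, adjusted p = 0.35, limma), −0.30 for Arl5a (standard error 0.30, adjusted p = 0.72) and −1.07 for Nid2 (standard error 0.58, adjusted p = 0.58). None was called, beside 0.156% of all genes, and the choice of genes that were higher in kTreg cells at both ages limits this term. A difference between the subsets in their response to age was therefore not shown for any of the 3 genes. The kTreg to aTreg ratio of Cd200r1 was between 3.73 and 5.43 in young and between 2.42 and 3.08 in old mice.

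**Figure D4:**
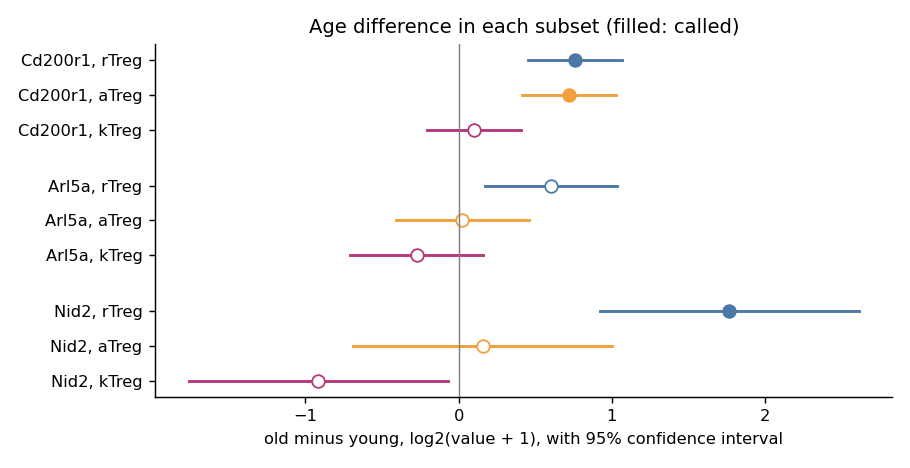
Old minus young difference of log2(value + 1) for each gene in each subset, as points with 95% confidence intervals from limma, filled where called. Cd200r1 in rTreg (0.76) and aTreg cells (0.72) and Nid2 in rTreg cells (1.77) are called, and no gene is called in kTreg cells. The aTreg and kTreg libraries are also those that chose the genes.

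The partners of each gene were taken from lists written by hand, from which the 3 genes themselves were left out. Counts of list genes between kTreg and aTreg cells stand beside 4.13% of all genes called higher and 3.26% called lower. Each called list gene was followed over 32 settings that left out 1 library or all libraries of 1 mouse, a step added after the data had been examined. Of 12 genes of the CD200 receptor axis, 11 were tested, and 1 was higher and 1 lower in kTreg than in aTreg cells (median log2 difference 0.07, against −0.08 over all genes). The gene of the ligand, Cd200, was the lower one, with a log2 difference of −0.64 (standard error 0.15, adjusted p = 0.0078 in limma). It was higher in the kTreg library of 2 of the 8 mice. It fell under the fold of 1.5 without old aTreg replicate 4 (−0.55), young kTreg replicate 4 (−0.55), old kTreg replicate 3 (−0.57), young mouse 4 (−0.56) or old mouse 3 (−0.56). Its means were 2934 ± 318 in young aTreg and 1328 ± 306 in young kTreg cells, but 1524 ± 479 and 1403 ± 406 in old mice. Dok1, an adaptor of the receptor, was higher in kTreg cells in 8 of 8 mice by 0.48 (adjusted p = 0.017), under the fold of 1.5. Dok2, the other adaptor, differed by 0.27 (adjusted p = 0.14) and Rasa1 by 0.07 (adjusted p = 0.81). In old rTreg cells Dok1 was higher than in young ones by 1.15 (adjusted p = 4e-04), as were the paralogs Cd200r3 and Cd200r4. Thus 3 of the 11 genes were called higher there and none lower, beside 5.83% of all genes called in either direction. The old rTreg libraries are those with the high basophil, mast cell and myeloid marker sums given above. The part of those cells in these 3 differences was not tested. Cd200r3 was not called in 10 of the 32 settings (adjusted p up to 0.090), and Dok1 and Cd200r4 were called in all 32.

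The paralogs of Cd200r1 encode activating receptors that pair with the adaptor DAP12, and their patterns differed from its own. Cd200r4 stood at 54.8 ± 25.7 in young aTreg and 225 ± 74.0 in young kTreg cells, but at 536 ± 165 in old aTreg and 393 ± 57.4 in old kTreg cells. It was the list gene called higher in kTreg than in aTreg cells (0.83, adjusted p = 0.029, limma), although it was higher in 4 of 8 mice, and it was not called in 13 of the 32 settings (adjusted p up to 0.098). Its interaction of age with subset was called, at −2.49 (standard error 0.49, adjusted p = 0.040, limma), but not in 22 of the 32 settings (adjusted p up to 0.254). Cd200r3, known from basophils and mast cells, was between 418 and 1395 in old rTreg cells and at most 116 in the other libraries. It was lower in aTreg and kTreg than in rTreg cells (log2 difference −3.54, adjusted p = 1.9e-05, limma). Cd200r2 reached at most 36.7 and was not tested. Thus no tested paralog had its highest levels in kTreg cells at both ages. Cd200r1 did, but it was chosen for being higher in kTreg than in aTreg cells, and the paralogs were not.

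Of 20 genes of the ARL5 route to the Golgi, all tested, 1 was called higher and none lower in kTreg than in aTreg cells (median −0.03, against −0.08 over all genes), a share near that of 4.13% over all genes. This was Vps54, which encodes a subunit of the GARP complex. It stood at 3075 ± 604 in young aTreg and 6232 ± 417 in young kTreg cells, and at 3259 ± 1026 and 6186 ± 580 in old mice, a log2 difference of 1.01 (standard error 0.15, adjusted p = 0.00011, limma) that was seen in 8 of 8 mice and called in all 32 settings. The other GARP subunits differed by 0.02 (Vps51), 0.13 (Vps52) and 0.06 (Vps53) and were not called. Vps54 was also higher in aTreg and kTreg than in rTreg cells, by 1.07 (adjusted p = 3.6e-06). Arl5c, a paralog of Arl5a, went the other way, lower in aTreg and kTreg cells (log2 difference −1.08, adjusted p = 7e-07), and fell with age in aTreg (−1.15, adjusted p = 0.0011) and kTreg cells (−0.98, adjusted p = 0.0096). The kTreg call was lost without young mouse 1 (−0.89, adjusted p = 0.055) or old mouse 4 (−0.93, adjusted p = 0.064). Arl5b, the other paralog, was between 108.6 and 390.02 in all libraries and was not called in any comparison. Like Arl5a, it was higher in kTreg than in aTreg cells in 8 of 8 mice, but by 0.32 (adjusted p = 0.31, limma). Of 19 further ARF and ARL genes tested, Arl4a was called higher in kTreg than in aTreg cells (0.59, adjusted p = 0.0012), and Arl2 (−0.72, adjusted p = 0.0079) and Arl4d (−2.09, adjusted p = 0.030) lower. These calls were near their limits. Arl4a was not called in 13 of the 32 settings, each time under the fold of 1.5, and Arl4d not in 10 (adjusted p up to 0.097). Arl2 fell under that fold without old aTreg replicate 2 (−0.57) or old mouse 2 (−0.55).

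Of 26 basement membrane genes, 12 were in the table and tested, and 2 were called higher and 1 lower in kTreg than in aTreg cells (median 0.04, against −0.08 over all genes), beside 4.13% and 3.26% of all genes. All 3 were called in all 32 settings. Lamc1, which encodes the laminin chain that nidogens bind, stood at 528 ± 55.4 in young aTreg and 1678 ± 387 in young kTreg cells, and at 579.9 ± 119 and 1308 ± 305 in old mice (log2 difference 1.41, standard error 0.22, adjusted p = 2e-04, limma). Col18a1, which encodes the chain of collagen XVIII, was at most 14.5 in rTreg and aTreg libraries and between 60.9 and 271 in kTreg libraries (4.53, standard error 0.60, adjusted p = 2.8e-05). Both were higher in kTreg cells in 8 of 8 mice. Fbln2, which encodes fibulin-2, was the lower one (−3.95, standard error 0.59, adjusted p = 0.00012), with means of 53.4 ± 21.5 in young aTreg and 2.78 ± 4.28 in young kTreg cells. Nid1, the paralog of Nid2, reached at most 41.1 in any library and was not called. The 10 fibroblast and reticular cell markers, of which 5 were in the table, summed to at most 73.6 in kTreg and at most 157 in the other libraries. The 8 endothelial cell markers, of which 4 were in the table, summed to between 914 and 1956 in young kTreg libraries. The sum was between 987 and 1183 in old kTreg and between 2722 and 3883 in young rTreg libraries. Of these markers Pecam1 reached 3864, and Tek, Vwf and Egfl7 reached at most 110.

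Of 10 laminin and collagen IV receptor genes tested, Itgb1, the integrin beta 1 chain, was called higher in kTreg than in aTreg cells, by 0.59 (standard error 0.18, adjusted p = 0.031, limma), and none was called lower. The Itgb1 call was absent in 10 of the 32 settings (adjusted p up to 0.114), and with TMM, edgeR or DESeq2 its fold was under 1.5. Itga3 was higher in 8 of 8 mice, by 1.132 (adjusted p = 0.065). Over the 5 lists, 6 genes were called higher and 4 lower in kTreg than in aTreg cells, beside 4.13% and 3.26% of all genes. Of the same 72 tested genes, 7 were higher and 4 lower in aTreg and kTreg than in rTreg cells, beside 8.04% and 3.82% of all genes. The count of 6 fell to 3 without young kTreg replicate 1, where Cd200r4, Arl4a and Itgb1 were not called, and the first count of 4 fell to 2 without old kTreg replicate 3 or the libraries of old mouse 2 or 3. The count of 4 lower than in rTreg cells became 7 without the libraries of old mouse 2. In that comparison Itga6 (−1.127), Dag1 (−1.004), Cd200r3 and Arl5c were the lower ones. Vps54, Lamc1, Col18a1 and Cd200r4 were called higher in both comparisons, which share the kTreg and aTreg libraries.

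**Figure D5:**
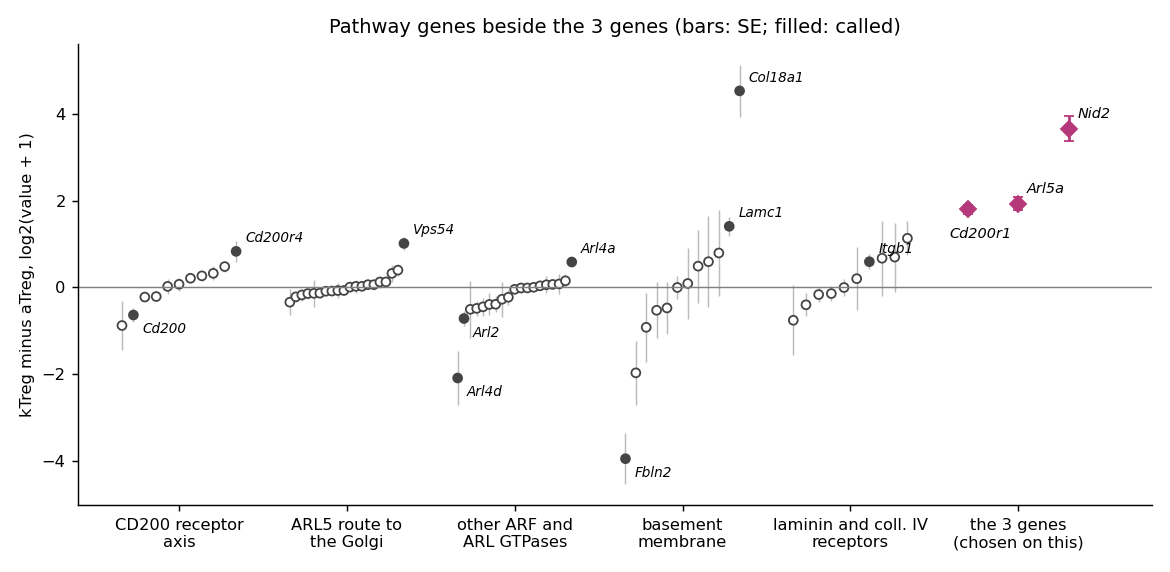
Log2 difference of kTreg from aTreg cells for the genes tested of 5 lists, with standard errors and filled points for called genes, beside Cd200r1 (1.80), Arl5a (1.93) and Nid2 (3.66), which were chosen on this difference. Most list genes lie near 0, and Vps54 (1.01), Lamc1 (1.41) and Col18a1 (4.53) stand above their lists.

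On the chromosome, the gene next but one to Arl5a in the table was Neb, which encodes the muscle protein nebulin and lies 19.5 kb from Arl5a on the same strand. Neb stood at 508 ± 77.3 in young aTreg and 2604.5 ± 752 in young kTreg cells, and at 669 ± 329 and 2681 ± 876 in old mice (log2 difference 2.22, standard error 0.23, adjusted p = 1.6e-06, limma). Gm13522, which overlaps Neb on the other strand, was also called higher, by 1.86 (standard error 0.58, adjusted p = 0.037), but not in 15 of the 32 settings (adjusted p up to 0.114), while Neb was called in all 32. Gm13522 had at most 114 reads in a library, against up to 4133 for Neb. Strand is not marked by the library kit, so reads cannot be told apart where these genes overlap. On the far side, Cacnb4 and the long non-coding RNA A430018G15Rik were not called. Both neighbours on each side of Cd200r1 (Nepro, Gtpbp8, Gm5063 and Gm19142) and the tested neighbours of Nid2 (Gm2237, Rtraf and Gng2) were not called between kTreg and aTreg cells. Of these, Gm5063 (0.84, standard error 0.80) and Gm19142 (1.34, standard error 0.92) were also low, with means of 24.3 and 22.5. Gtpbp8 differed by −1.19 (standard error 0.78) and Nepro by −0.01 (standard error 0.36).

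The library kit does not mark strand, so reads from overlapping genes cannot be told apart. The 3′ end of Nid2 shares 767 exon bases with Rtraf on the opposite strand, which stood at a log2 difference of −0.10 (standard error 0.10) between kTreg and aTreg cells. Arl5a shares 29 exon bases with A430018G15Rik, whose highest group mean was 20.6. Cd200r1 shares 228 exon bases with Gm60988. Of 3491 distinct runs of 50 bases in the annotated transcripts of Cd200r1, 181 also occur in Gm60988 (5.18%) and 40 in Cd200r4 (1.15%), and of 6912 runs of Nid2, 630 occur in Rtraf (9.11%). No run of Arl5a occurs in transcripts of another gene.

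The genes whose pattern was most like each of the 3 were named by Pearson r of log2(value + 1) over the 24 libraries, which share the 6 groups, so that r mostly reflects the subsets. For Cd200r1 these were Neb (0.95), Slc52a3 (0.95), Gata3 (0.94), Gm3252 (0.93) and 1700061F12Rik (0.93). For Arl5a they were Hacd3 (0.95), M6pr (0.95), Neb (0.94), Ptger4 (0.94) and Vps54 (0.94). For Nid2 they included Il1rl1 (0.92), Gm6637 (0.90), Cd200r1 (0.90) and Fgf16 (0.90). Among the 3 genes r was between 0.89 and 0.92 over 24 libraries. With the group means removed it was −0.29 for Cd200r1 and Arl5a, −0.06 for Cd200r1 and Nid2 and −0.55 for Arl5a and Nid2, so the relation over 24 libraries did not appear within the groups. By deviations from the group means, the gene most like Cd200r1 was Gm42759 (r = 0.82) and that most like Arl5a was Arhgap25 (0.87).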

How the data were processed

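Treg subsets had been sorted from spleen by FACS, and cDNA was made with SMART-Seq v4, without molecular identifiers. The authors aligned paired reads to GRCm39 with HISAT2 2.2.1, used SAMtools 1.13, counted reads per gene with HTSeq 1.99.2 and used DESeq2 1.44.0. The annotation release and strand setting are not given in the sources used here. The deposited values are a normalized signal, the reads of a gene divided by 1 size factor per library. Whole reads were recovered from the value of 1 read in each library (100% of values within 0.001 reads), and every listed gene had at least 100 reads in sum. Intervals from reads would cover counting error only. Symbols and positions came from GENCODE M39 for 17353 of 17464 genes.

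Differences were tested in R 4.3.3 with limma 3.58.1 (eBayes with its trend option). The values entered as log2(value + 1), the model held the 6 groups, and p-values were Benjamini-Hochberg adjusted over 16630 genes. A log-scale test was the main one since the deposited values are not counts. The scripts were tested on simulated data. The test of the 3 genes against rTreg cells is left out, since libraries that chose them enter it. The choice used both ages alike, so the age tests in aTreg and kTreg cells were kept, although they use those libraries. The members and lists were chosen with earlier results of these data known. Named genes were the 3 genes, called genes and paralogs of the lists, the genes ranked next to them, the 5 most like each and the 2 nearest on each side, of which some are not reported here. The subsets of a mouse share its number. Deviations from group means correlated within a mouse with medians of 0.15 for rTreg and aTreg, 0.09 for rTreg and kTreg and 0.12 for aTreg and kTreg cells. Alternatives changed the pseudocount (0.5 or 5), the filter (none or 50) and the scaling (TMM), used the mouse as replicate block or only the groups compared, ran edgeR 4.0.16 or DESeq2 1.42.0 on the recovered reads, and left out each library or mouse. Promoter sequence is RefSeq, and Cd200r1 and Nid2 had no entry. Python 3.11.15 with pandas 2.3.3 was used for the rest.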

Additional observations from a re-analysis of the deposited data

Results flagged for a closer look

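Of 18 groups of 4 libraries of the 3 genes, 2 held a library whose gap to the nearest other exceeded Dixon's 95% critical value, as a share of the group's range, and chance flags about 1 group in 20. Cd200r1 stood at 5139.7 in old kTreg replicate 1, against 6125 to 6266 in the other old kTreg libraries. Arl5a stood at 2368.8 in young aTreg replicate 4, against 1350.2 to 1505 in the others. A paralog of Cd200r1 had an age difference that differed between subsets: for Cd200r4 the interaction of age with kTreg against aTreg cells was −2.485 on the log2 scale (standard error 0.49, adjusted p = 0.040, limma), from an old minus young difference of 3.34 in aTreg and 0.86 in kTreg cells. The interaction was not called in 22 of 32 settings that left out a library or a mouse.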

How the results depend on the processing

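Over 41 alternatives, the age differences of Cd200r1 in rTreg and aTreg cells kept their direction and were called. The comparison with rTreg cells holds all groups, so a model of only the groups compared was the same fit. Arl5a in old against young rTreg cells became called with DESeq2 (0.603, adjusted p = 0.048), and it ranged from 0.489 to 0.686 when libraries or mice were left out. Nid2 in old against young rTreg cells was not called with only the groups compared (1.769, adjusted p = 0.074), where 8 libraries remain, and ranged from 1.478 to 2.012 when libraries or mice were left out. The causes of the other changed calls were not tested. With libraries or mice left out, the list genes called between kTreg and aTreg cells ranged from 3 to 8 higher and from 2 to 5 lower, and those called lower than in rTreg cells from 4 to 7. With the mouse as replicate block (consensus correlation 0.062) no call on the 3 genes changed. An added step, chosen after seeing the data, followed each called list gene and called neighbour with libraries or mice left out. Between kTreg and aTreg cells 5 of 12 (Vps54, Lamc1, Col18a1, Fbln2 and Neb) were called throughout and 7 were not, and against rTreg cells 13 of 13 were. By Spearman rho, 1 of the 5 genes most like Cd200r1 stayed among its 5, and 0 for Arl5a and Nid2. Few Nid2 reads in rTreg libraries limit its age difference.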
